A study of Homo sapiens with 12 samples.

Results

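Divergent promoter transcripts are noncoding RNAs that start beside the promoter of a protein-coding gene and run away from it on the opposite strand, and their approved symbols are the name of that gene followed by -DT. The transcripts described here were the rows of the expression table that matched a -DT symbol in GENCODE release 44 and had a mean of at least 1 RPKM (reads scaled to exon length and to the size of the library) over the 12 libraries. They numbered 179 of the 381 -DT genes in the table, which listed 26058 genes in all. Of the other -DT genes 90 had a mean of 0.5 to 1 RPKM and 112 were lower still. The members were chosen by their measured mean RPKM, so their levels are given as a description without a test. The members just inside the threshold were ICMT-DT, CABP1-DT and FCHO2-DT, each at a mean of 1.004 RPKM. Just outside it were LHX1-DT at 0.993, SLC30A6-DT at 0.987 and PKD2L2-DT at 0.977 RPKM.

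Total RNA was depleted of ribosomal RNA and sequenced by strand from HEK293 cells, an established human embryonic kidney line, and from a HEK293 double knockout line, made with CRISPR, of the genes of the catalytic AMPKα subunits, PRKAA1 and PRKAA2 (AMPK KO). All cells were starved of serum for 24 h. They then received DMSO, the solvent, alone, or DMSO with EGF for the last 30 min, or 25 µM cordycepin with EGF for the last 30 min, with 50 min of treatment in total in the sample labels. The 6 groups (WT and AMPK KO under each of the 3 treatments) had 2 libraries each, numbered replicates 2 and 3, which the study terms biological replicates without describing the cultures they came from, so p-values measure the spread between these libraries. No group received cordycepin without EGF, so cordycepin is compared with EGF alone. The AMPK KO line was a single gifted line, and what distinguishes it beyond AMPK cannot be told apart from the loss of AMPK. Cordycepin, or 3′-deoxyadenosine, is phosphorylated by cells and is known to inhibit polyadenylation.

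Most mammalian promoters are bidirectional: RNA polymerase II starts both towards the coding sequence and away from it. The outward transcripts are usually short-lived, because early polyadenylation signals and the scarcity of U1 snRNP binding sites favour early termination and the nuclear exosome degrades the product, with the Integrator complex as a further route of early termination. The members of this group are the outward transcripts that are spliced, long or abundant enough to have been annotated as genes.

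The start sites of 5 members that the results turn on are shown here, up to 120 bases before the annotated 5′ end in lower case (fewer where the partner starts sooner) and the first 30 transcribed bases in capitals. CAPN10-DT and PHLDA1-DT were among the members called for cordycepin over both lines, PRKACB-DT had a partner that fell with cordycepin in AMPK KO cells, ACAD9-DT separated the lines and ZDHHC12-DT went in opposite directions in them. Sequences were read from hg38, the build of the files, at GENCODE 44 starts, 5′ to 3′ on the transcript's own strand, and none overlapped a protein-coding exon.
CAPN10-DT (chr2:240586670-240586733, - strand): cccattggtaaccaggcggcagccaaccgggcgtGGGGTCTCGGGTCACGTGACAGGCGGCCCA
PHLDA1-DT (chr12:76032538-76032687, + strand): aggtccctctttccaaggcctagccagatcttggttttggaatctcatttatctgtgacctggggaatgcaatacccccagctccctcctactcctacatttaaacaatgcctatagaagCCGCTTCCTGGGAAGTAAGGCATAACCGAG
PRKACB-DT (chr1:84077932-84078061, - strand): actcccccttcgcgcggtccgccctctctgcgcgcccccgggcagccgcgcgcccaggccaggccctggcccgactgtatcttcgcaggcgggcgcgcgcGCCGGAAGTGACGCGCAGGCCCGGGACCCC
ACAD9-DT (chr3:128879446-128879595, - strand): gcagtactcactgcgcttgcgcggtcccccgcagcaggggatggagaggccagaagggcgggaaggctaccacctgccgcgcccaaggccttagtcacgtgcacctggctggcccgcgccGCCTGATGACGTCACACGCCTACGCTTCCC
ZDHHC12-DT (chr9:128724315-128724464, + strand): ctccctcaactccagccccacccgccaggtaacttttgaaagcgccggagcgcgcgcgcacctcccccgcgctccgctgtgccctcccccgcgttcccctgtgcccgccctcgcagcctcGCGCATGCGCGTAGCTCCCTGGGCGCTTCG

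The starts differed in composition. The windows of PRKACB-DT and ZDHHC12-DT held 21 and 20 CpG dinucleotides with 80% and 73.3% G+C, whereas that of PHLDA1-DT held 2 CpG with 48.7% G+C. The windows of CAPN10-DT and ACAD9-DT held the E-box CACGTG, which lay within 250 bases before to 50 bases after the start of 7.82% of the members and 7.51% of all tested genes. The ACAD9-DT window also held TGACGTCA, the cAMP response element, found in 4.47% of members, 5.587% of partners and 2.03% of all genes. The ZDHHC12-DT window held the NRF1 palindrome, found in 5.03% of members, 2.235% of partners and 1.46% of all genes. These 3 motifs were chosen after the windows had been read, both strands were searched, and each is its own reverse complement.

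As a group the members started in CpG-rich promoters. The median G+C content of the same 300-base window was 68% in the members, 66.3% in their partners, 57.7% in all 22017 tested genes with a sequence and 51.7% in the tested lncRNA genes. The median number of CpG was 30 in the members, 28 in the partners and 7 in the lncRNA genes. The GC box GGGCGG was found in 71.5% of members, 67.6% of partners, 62.56% of tested protein-coding genes and 46.05% of all genes. The core bound by ETS factors, CGGAAG, was found in 36.3%, 43.58%, 27.64% and 20.8% in the same order. The TATA box TATAAA was found in 3.91% of members and 11.8% of all genes, and CCAAT in 30.7% and 35.5%. These motifs were searched on both strands, and member and partner windows overlap in sequence where the starts are close. The polyadenylation signal AATAAA was searched in the first 1000 genomic bases downstream on the sense strand. It was found for 57 members (31.8%) and for 20 of their 179 partners (11.2%). The share was 30.2% for all tested genes, 41.85% for the tested lncRNA genes and 18.67% for the tested protein-coding genes. The 5′ splice site sequence GTAAGT was found there in 14.5% of members, 13.4% of partners and 15.4% of all genes.

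All 179 members lay on the strand opposite their partner, which was found by symbol for all but UHRF1BP1L-DT, matched to BLTP3B through a RefSeq synonym. The distance from the 5′ end of the partner to that of the transcript had a median of 88 bases (interquartile range -5.5 to 194, where a negative value means that the 5′ ends overlap), and 145 members lay within 500 bases. For 8 members the ends were more than 5000 bases apart (ZNF584-DT, CHKB-DT, TWF2-DT, TMEM123-DT, CDKN2A-DT, ERBIN-DT, EPM2A-DT and GARS1-DT). The members had a median of 2 exons (51 had 1) and a median exon length of 1865 bases. Exons of 37 members overlapped those of the partner, and exons of 71 overlapped those of some annotated gene. How strand was set in counting is not given in the sources used here, so reads in those overlaps are uncertain. Among members named here, KPNB1-DT shared 510 exonic bases with NPEPPS, RAB30-DT 382 with COX5BP4 and LINC02951, PRMT5-DT 47 with HAUS4, PIK3IP1-DT 36 with PIK3IP1 and PIWIL2-DT 26 with POLR3D. The overlaps of EPM2A-DT (1981 bases), TMEM161B-DT (1223), STUB1-DT (417), ZNF8-DT (414), GNB1-DT (295), TMED2-DT (284) and ICMT-DT (89) were likewise with exons on the opposite strand. Other overlaps are given beside the values they touch.

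Levels were low. The median of the members' mean level was 1.84 RPKM (interquartile range 1.40 to 2.97), 102 lay under 2 RPKM and 21 at or above 5 RPKM. NIPBL-DT, beside the gene of the cohesin loader, was the most abundant at 12.7 RPKM. Its libraries ran from 11.0 to 16.4 RPKM, against 17.4 to 28.1 RPKM for NIPBL. NUDT19-DT followed at a mean of 10.5 RPKM, ZNF567-DT at 10.3, ZDHHC12-DT at 9.71 and ZNF584-DT at 9.25. PAXIP1-DT, STUB1-DT, CAMSAP1-DT, TMEM11-DT and ZNF8-DT had means of 8.17, 7.39, 7.04, 6.93 and 6.79 RPKM. Among these 10, STUB1-DT and ZNF8-DT shared exonic bases with a gene on the other strand.

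The levels of transcript and partner were weakly related. The Spearman correlation of the mean levels was 0.084 over the 177 pairs whose partner was tested, a description over genes that share libraries and were cut at 1 RPKM on the transcript's side. The partner was higher in 159 pairs, and over all pairs it had a median of 4.48 times the level of the transcript (interquartile range 1.85 to 10.4). GAPDH, the glycolytic enzyme, was the extreme at 214 times GAPDH-DT (436 against 2.04 RPKM), followed by RPL37A-DT, KPNB1-DT, BTF3-DT and CKAP2-DT. In the other 20 pairs the noncoding side was higher. PIWIL2-DT (1.42 RPKM) was 11.9 times PIWIL2, a germline gene at 0.119 RPKM, and C2orf74-DT (5.59 RPKM) was 11.3 times C2orf74. MVP-DT, CYP26C1-DT and RAB30-DT were 5.01, 3.47 and 3.22 times their partners, although MVP-DT shared 1536 exonic bases with MAZ, PRRT2, PAGR1 and unnamed genes.

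**Figure D1:**
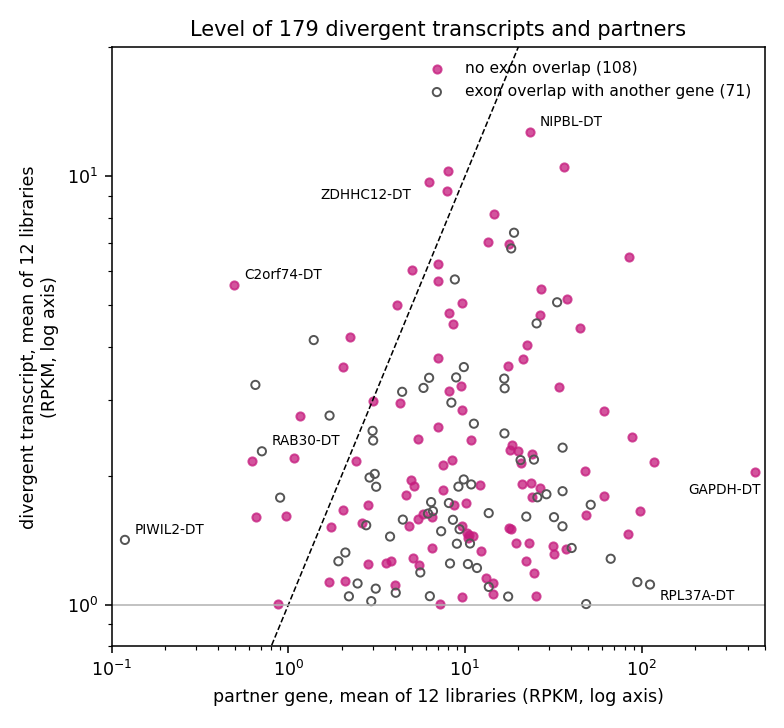
Mean RPKM of each divergent transcript (vertical, log axis) against its partner gene (horizontal, log axis) over 12 libraries, with filled points for the 108 members that share no exonic bases with another gene and open points for the 71 that do. The dashed line marks equal levels, the grey line the selection threshold of 1 RPKM, and 20 of 179 points lie left of the dashed line.

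Depth set the precision of these values. Reads recovered from the RPKM values over genes with whole counts totalled 3670348 in WT DMSO replicate 3 and 11550969 to 24146372 in the other libraries. The median member had 16 reads in that shallow library and 48 to 123 in the others, and 2 members, TIMMDC1-DT among them, had none. Over the members the 2 WT DMSO libraries correlated with r = 0.66 on the log2 scale, against 0.85 to 0.90 in the other groups. The HEK293 markers LIN28B, NEFL, INA, VIM, KRT8 and KRT18 lay between 8.0 and 82.3 RPKM in every library, whereas NEFM and PAX2 did not exceed 0.342 and 0.851 RPKM. Of other cells' markers, PTPRC reached at most 0.061 and COL1A1 1.21 RPKM, and ALB, MYH2 and PECAM1 were not analysed here. PRKAA1 was at 7.03 to 8.51 RPKM in the AMPK KO libraries and 11.2 to 21.9 in WT, and PRKAA2 at 5.39 to 7.43 and 6.78 to 12.1 RPKM, so the ranges of PRKAA2 overlapped.

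The main pattern was with cordycepin: the median change of the divergent transcripts was above 0 in both lines, and above that of their partners. Fold changes are differences of log2(upper-quartile scaled RPKM + 0.5), which understates changes at low levels, and were tested with limma over all 22067 genes of at least 0.5 RPKM, a filter that all 179 members passed. In bulk RNA a change in every cell and a larger change in some cells cannot be told apart. In WT cells the median change from EGF to cordycepin with EGF was 0.30 over the members, 0.02 over the partners, 0.16 over the 3050 other lncRNA genes of at least 1 RPKM and 0.03 over all genes tested. The corresponding AMPK KO medians were 0.22 over the members, -0.16 over the partners, 0.28 over the other lncRNA genes and 0.06 over all genes. The members' median thus lay above that of the other lncRNA genes in WT and below it in AMPK KO cells, a difference that was not tested. It was 0.27 in WT and 0.17 in AMPK KO cells with median-ratio scaling, and over all alternatives it ranged from 0.25 to 0.38 and from 0.11 to 0.31.

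Few single members passed the adjusted test. In WT cells 0 members had a Benjamini-Hochberg adjusted p under 0.05 by limma, where 0.00453% of all genes did. For AMPK KO cells 1 member did, DPY19L3-DT, where 0.471% of all genes did. The smallest p-values in WT cells belonged to ZDHHC12-DT (1.35, adjusted p = 0.177 by limma), CAPN10-DT (0.85, 0.252) and PHLDA1-DT (1.25, 0.252). At an unadjusted p under 0.05, 47 members were higher and 1 was lower in WT cells, which is 26.3% and 0.559% of the members beside 8.86% and 7.13% of all genes. The AMPK KO comparison had 38 higher and 6 lower, 21.2% and 3.35% beside 11.7% and 10.1% of all genes. Among the other lncRNA genes 13.4% were higher in WT and 17.8% in AMPK KO cells, and among protein-coding genes 7.82% and 8.98%. Of the 177 partners tested, 15 were higher and 14 lower in WT, and 11 higher and 52 lower in AMPK KO cells.

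The selection used the cordycepin libraries too, so the counts were repeated without members that depended on them. For 12 members the mean of the 8 libraries without cordycepin was under 1 RPKM. Of the remaining 167, 43 were higher and 1 lower at an unadjusted p under 0.05 in WT cells and 33 higher and 6 lower in AMPK KO cells, with medians of 0.30 and 0.22. The cordycepin libraries of WT cells did not overlap the EGF libraries, and lay above them, for 93 of the 167 (100 of all 179), beside 29.2% of all genes, and lay below them for 16 (17), beside 24.7%. In AMPK KO cells they lay above for 67 (75), beside 32.2% of all genes, and below for 26 (27), beside 27%. Of the 3050 other lncRNA genes, 1106 lay above and 457 below in WT cells. The AMPK KO counts of these other genes were 1330 above and 269 below, so lying above was not particular to the members there. Other lncRNA genes selected through the cordycepin libraries were not removed.

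Part of this varied with single libraries, and its relation to depth was not tested. WT cordycepin replicate 2 was the deepest library, with 24146372 recovered reads against 14339941 in replicate 3. The members' median deviation was 0.19 in both WT cordycepin libraries, on the log2 scale relative to each gene's mean of 12. The AMPK KO cordycepin libraries held 11550969 reads in replicate 2 and 16471919 in replicate 3. The AMPK KO deviation was 0.28 in cordycepin replicate 2 and 0.05 in replicate 3, and that of the other lncRNA genes was 0.35 and 0.05. Without AMPK KO cordycepin replicate 2 the count of members higher in AMPK KO cells was 22 and their median 0.11, and without replicate 3 the count was 36 and the median 0.31. In WT cells the count was 30 without EGF replicate 2, 29 without EGF replicate 3, 38 without cordycepin replicate 2 and 29 without cordycepin replicate 3. What set AMPK KO cordycepin replicate 2 apart was not tested.

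**Figure D2:**
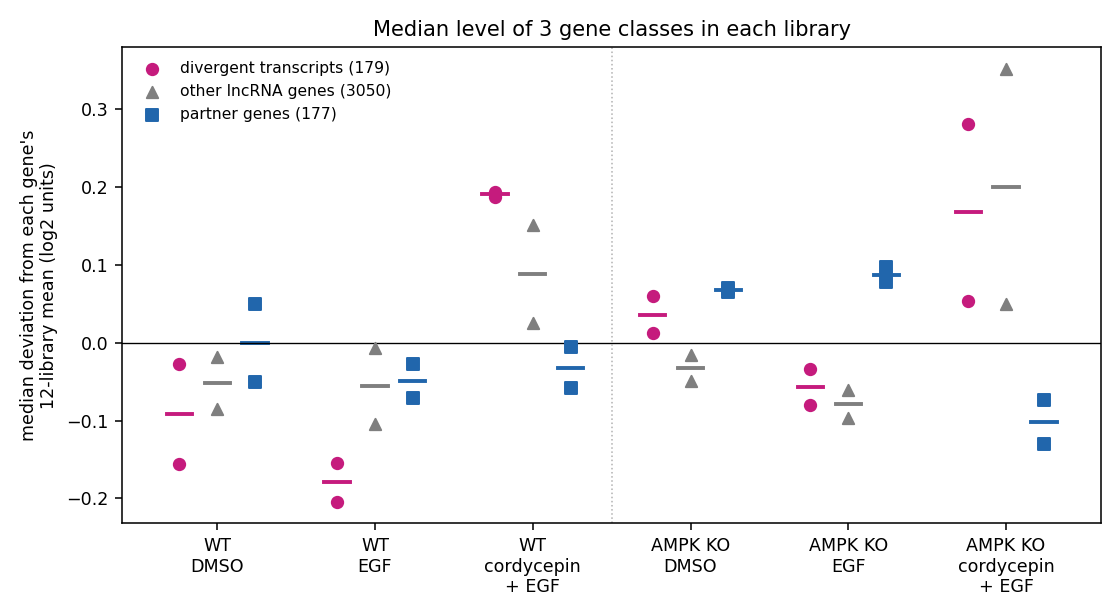
Median deviation of 3 gene classes from each gene's mean over 12 libraries (log2 of upper-quartile scaled RPKM + 0.5), with 1 point per library and a bar at the mean of the 2 libraries. Divergent transcripts sit at 0.19 in both WT cordycepin libraries and at 0.28 and 0.05 in those of AMPK KO cells, while the partner genes lie below 0 in all 4.

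The EGF libraries are the baseline of this comparison, so the cordycepin libraries were also set against DMSO alone, a choice made after seeing the data. Against DMSO, 33 members were higher and 5 lower at an unadjusted p under 0.05 in WT cells, beside 12.7% and 6.63% of all genes. The AMPK KO counts were 27 and 8, beside 12.2% and 10%. As shares of the members these were 18.4% higher and 2.79% lower in WT, and 15.1% and 4.47% in AMPK KO cells. The other lncRNA genes had 15.6% higher and 4.66% lower in WT, and 17.4% and 3.34% in AMPK KO cells. The medians were 0.27 and 0.16. Over the 6 groups, 60 members had their highest mean in AMPK KO cells with cordycepin and 50 in WT cells with cordycepin, against 7 and 14 in the EGF groups of the 2 lines. These counts use RPKM as deposited and include the members that reached 1 RPKM only through the cordycepin libraries. The share of all genes was not counted, so they are a description. The highest group mean was a median of 1.82 times the lowest for a member and 1.46 times for a partner.

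The comparisons in the 2 lines share no library. Of the members 101 had a positive and 7 a negative change in both, counts that include the members selected through the cordycepin libraries. The share of all genes for both lines together was not counted. In WT cells 78.8% of members had a positive change, beside 62% of the other lncRNA genes and 53.5% of all genes. The AMPK KO shares were 73.7%, 74.9% and 55.1%. In both lines at an unadjusted p under 0.05, 15 members were higher, beside 2% of all genes, and 0 were lower in both. They were PRKACB-DT, WAPL-DT, TMEM161B-DT, CAPN10-DT, TMCC1-DT, GSK3B-DT, MIF4GD-DT, EFCAB6-DT, PHLDA1-DT, RNF139-DT, NFE2L1-DT, TMED2-DT, GTSE1-DT, GOT1-DT and TIMMDC1-DT. Averaging the cordycepin effect over both lines (4 libraries against 4, also added after seeing the data) called PHLDA1-DT, CAPN10-DT and TIMMDC1-DT at an adjusted p under 0.05 by limma, where 0.965% of all genes passed. TIMMDC1-DT is one of the 12 members that reached 1 RPKM only through the cordycepin libraries, so the count without such members is 2. It is also among the 15 members higher in both lines. The count of 15 and the unadjusted counts of the average were not repeated without such members. Taken at an unadjusted p under 0.05, that average was higher for 54 members, beside 10% of all genes, and lower for 1, beside 5.25%, with 34 higher without WT EGF replicate 3. The adjusted count was 8 without either WT DMSO library, 1 without either AMPK KO DMSO library, 3 without AMPK KO cordycepin replicate 3 and 0 without any of the other 7 libraries.

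CAPN10-DT is a single-exon transcript of 4000 bases that starts 35 bases from CAPN10, the gene of a calpain protease. It was at 1.03 and 0.745 RPKM in the WT DMSO libraries (replicates 2 and 3), 1.17 and 1.25 with EGF and 2.46 and 2.54 with cordycepin. Its AMPK KO levels were 1.79 and 2.00, 1.61 and 1.59, and 3.64 and 2.91 RPKM. The cordycepin libraries were the highest in each line and did not overlap the others. The averaged log2 fold change was 0.86 (SE 0.13, adjusted p = 0.0235 by limma), with 0.85 in WT and 0.88 in AMPK KO cells. CAPN10 itself had log2 fold changes of 0.60 in WT (adjusted p = 0.288) and -0.15 in AMPK KO cells (adjusted p = 0.745).

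PHLDA1-DT begins 882 bases from PHLDA1, a gene named for a pleckstrin homology-like domain and measured here at only 0.416 to 0.993 RPKM. The transcript was at 1.13 and 2.23 RPKM in WT with DMSO, 0.608 and 0.624 with EGF and 1.83 and 2.40 with cordycepin. The AMPK KO libraries were at 1.08 and 1.17, 0.835 and 0.930, and 3.77 and 2.58 RPKM. The cordycepin libraries exceeded the EGF libraries in both lines, but in WT they overlapped those with DMSO. The averaged log2 fold change was 1.34 (SE 0.19, adjusted p = 0.0212 by limma). Its reads ran from 7 to 43 per library.

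TIMMDC1-DT, beside the gene of a complex I assembly factor, had a mean of 0.538 RPKM over the 8 libraries without cordycepin and 1.12 over all 12, so the cordycepin libraries themselves selected it and its change is a description. The averaged change was 1.53 (SE 0.28, adjusted p = 0.0449 by limma). It was at 0.350 and 0 RPKM in WT with DMSO, 0.313 and 0.241 with EGF and 1.38 and 1.61 with cordycepin. Its levels in AMPK KO cells were 0.903 and 1.20, 0.287 and 1.01, and 4.20 and 1.99 RPKM. Between 0 and 31 reads per library stood behind these values. The fold change ran from 1.15 to 2.19 over the alternatives, and the call was lost in 16 of 23.

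DPY19L3-DT, whose partner encodes a C-mannosyltransferase, was the member called in AMPK KO cells. It was at 2.53 and 3.13 RPKM with EGF and 6.53 and 5.81 with cordycepin there, which gave 1.05 log2 units (SE 0.17, adjusted p = 0.0443 by limma). With DMSO it was at 4.21 and 3.75 RPKM. In WT cells the EGF libraries were at 5.76 and 4.75 and the cordycepin libraries at 5.07 and 5.64 RPKM, which overlapped. Its exons share 18 bases with DPY19L3, and the call was lost in 15 of 23 alternatives. Without either WT DMSO replicate 2 or WT DMSO replicate 3, which enter only through the estimate of spread, 11 members were called in AMPK KO cells, and 0 without any of the other 10 libraries.

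**Figure D3:**
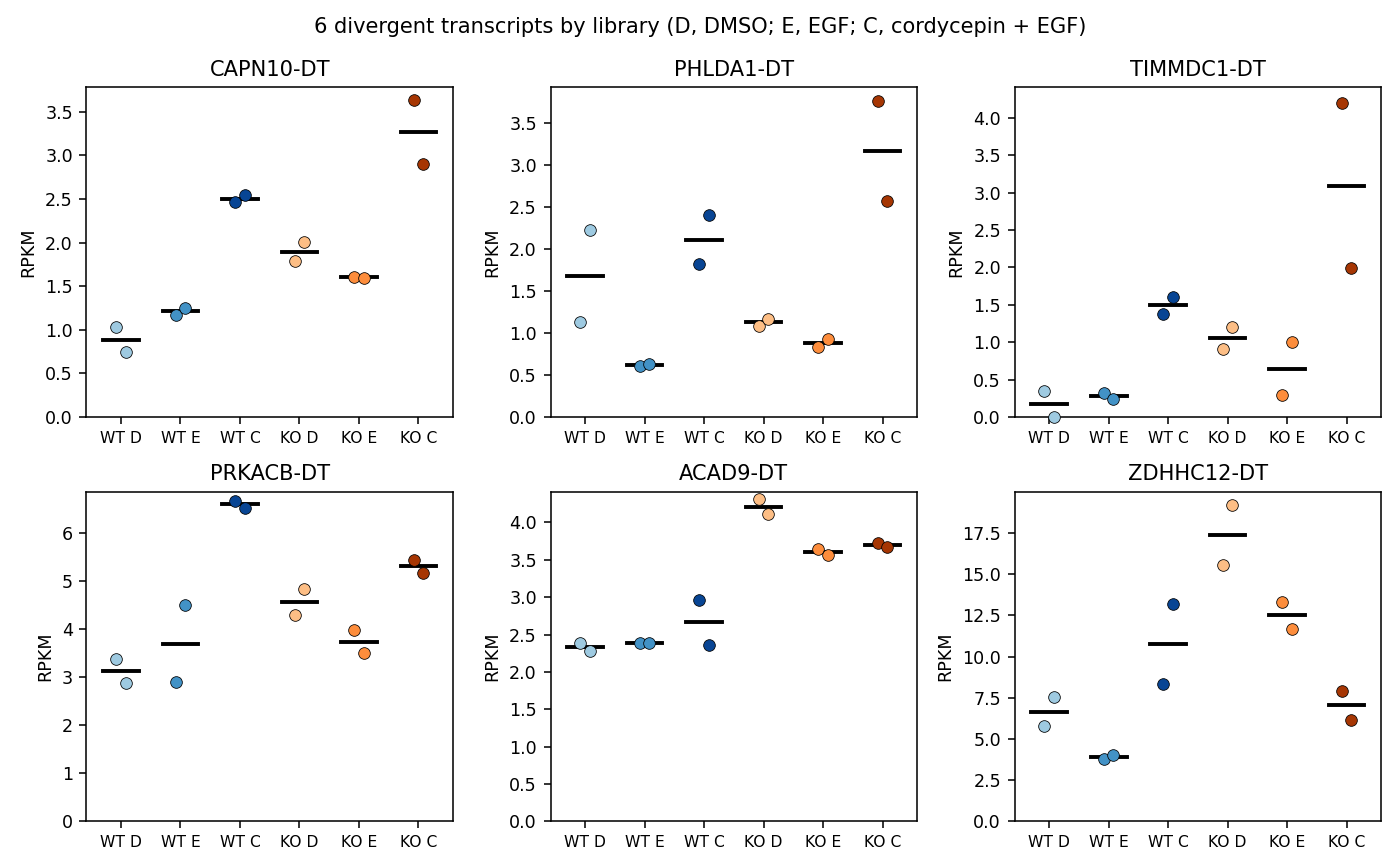
RPKM as deposited of 6 members in every library, with points for the 2 replicates and a bar at their mean, and letters D, E and C for DMSO, EGF and cordycepin with EGF. CAPN10-DT is highest with cordycepin in each line (2.46 and 2.54 RPKM in WT, 3.64 and 2.91 in AMPK KO), ACAD9-DT separates the lines, and ZDHHC12-DT moves up in WT and down in AMPK KO cells with cordycepin.

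The lines differed in sign for a few members. At an unadjusted p under 0.05 in each line, 3 members were higher with cordycepin in WT and lower in AMPK KO cells: ZDHHC12-DT, MTA1-DT and TP53RK-DT. The share of all genes that did so was not counted, so these members are given as values. ZDHHC12-DT, beside the gene of a palmitoyltransferase, was at 3.81 and 4.02 RPKM with EGF and 8.31 and 13.2 with cordycepin in WT cells. The AMPK KO libraries were at 13.3 and 11.7 with EGF and 7.94 and 6.14 with cordycepin. Neither line's groups overlapped. MTA1-DT was at 2.28 and 2.31 against 6.38 and 7.43 RPKM in WT, and at 6.73 and 8.18 against 3.96 and 2.14 in AMPK KO cells. TP53RK-DT was at 0.250 and 0.0963 against 0.989 and 2.07 RPKM in WT, and at 2.52 and 2.52 against 0.216 and 1.09 in AMPK KO cells.

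The difference between the lines did not pass the adjusted test for any member. The interaction was -2.10 for ZDHHC12-DT (SE 0.31, unadjusted p = 8.98e-05), -3.04 for TP53RK-DT and -2.60 for MTA1-DT, with adjusted p of 0.122, 0.122 and 0.123 by limma, where 0% of all genes passed. RAB30-DT, also among the 3 members of smallest p, had an interaction of 1.55 (adjusted p = 0.122 by limma). For this interaction 12 members had a higher and 20 a lower effect in AMPK KO cells at an unadjusted p under 0.05, beside 10.9% and 10.5% of all genes. The 20 became 11 without WT cordycepin replicate 3 and 10 without AMPK KO EGF replicate 3 or AMPK KO cordycepin replicate 3. The adjusted count was 13 without WT DMSO replicate 2 and 14 without WT DMSO replicate 3. RAB30-DT was at 2.93 and 3.07 RPKM with EGF and 1.82 and 2.60 with cordycepin in WT cells, and at 1.39 and 1.28 against 3.68 and 3.53 RPKM in AMPK KO cells.

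**Figure D4:**
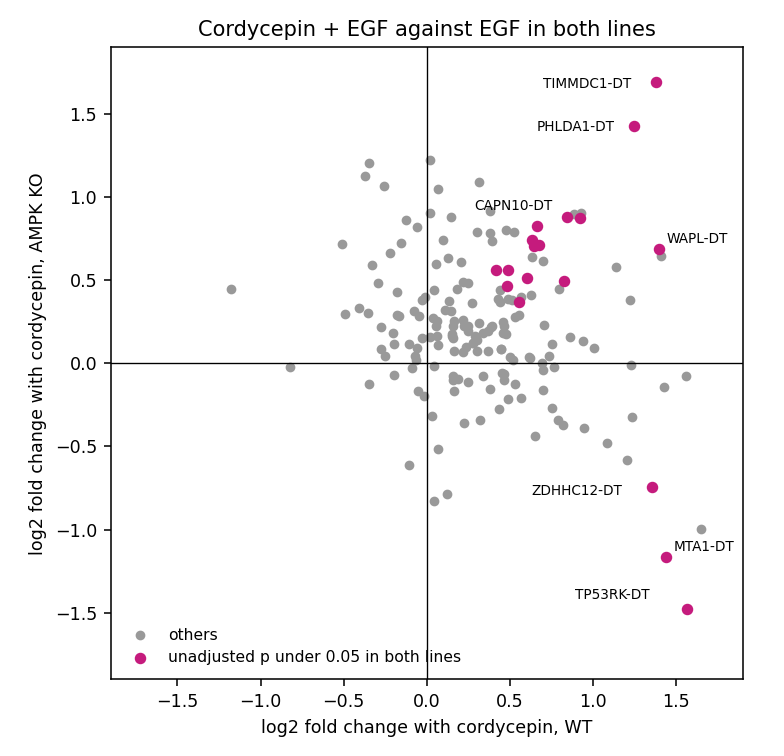
Log2 fold change of the 179 members with cordycepin (cordycepin with EGF against EGF) in WT (horizontal) and AMPK KO cells (vertical), with the members at an unadjusted p under 0.05 in both lines in colour. The upper right quadrant holds 101 members, and ZDHHC12-DT, MTA1-DT and TP53RK-DT lie in the lower right.

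With cordycepin, the transcript usually shifted upwards relative to its partner. The change of the member exceeded that of its partner in 129 of 177 pairs in WT and 145 of 177 in AMPK KO cells. In 60 WT and 92 AMPK KO pairs the member was higher and the partner lower. These counts include the members selected through the cordycepin libraries and were not repeated without them. The same holds for the unadjusted counts of the ratio below. The Spearman correlation between the change of the member and that of the partner was 0.15 in WT and 0.10 in AMPK KO cells over the pairs, given as a description. The ratio of transcript to partner was tested over 977 pairs of a noncoding and a protein-coding gene that start within 1000 bases of each other on opposite strands or carry a -DT name, of which 177 were members. Over the members its median change was 0.29 (WT) and 0.36 (AMPK KO), and 0.30 and 0.35 over all 977 pairs, so the members' median lay close to that of all such pairs.

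In WT cells the ratio passed at an adjusted p under 0.05 for 0 members by limma, beside 0.307% of all pairs, with 41 members (of 177) higher and 4 lower at an unadjusted p under 0.05, beside 20.5% of all pairs higher and 10 pairs lower. The AMPK KO ratio passed for TIMMDC1-DT (2.04), DPY19L3-DT (1.38), PRKACB-DT (1.42) and TMEM11-DT (1.12), each with an adjusted p of 0.0411 by limma, beside 0.921% of all pairs. The AMPK KO count depended on the processing. It was 0 with a pseudocount of 0.1, 4 with the replicate block, and 10 higher and 1 lower with a pseudocount of 1. TIMMDC1-DT was selected through the cordycepin libraries, and the AMPK KO count without members selected in that way is 3. Averaged over both lines the ratio passed for 12 members, beside 4.71% of all pairs, and for 10 without members selected in that way. The 12 became 28 without either WT DMSO library, 8 without either AMPK KO DMSO library, 15 without AMPK KO cordycepin replicate 3, 1 without AMPK KO EGF replicate 3 and 0 without any of WT EGF replicates 2 and 3, WT cordycepin replicates 2 and 3, AMPK KO EGF replicate 2 and AMPK KO cordycepin replicate 2. With a pseudocount of 0.1 it was 7. The 12 members of the main fit included TIMMDC1-DT, PHLDA1-DT, WAPL-DT, GTSE1-DT, GSK3B-DT, PRKACB-DT, RNF139-DT, TMCC1-DT, CDKN2A-DT, POU2F1-DT and GNB1-DT. The 12 ratios changed by 0.73 to 1.60 log2 units, and CDKN2A-DT starts more than 5000 bases from its partner. Apart from the members named before, these genes were chosen after their values were seen.

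The partner of PRKACB-DT encodes a catalytic subunit of protein kinase A and starts 101 bases away. In AMPK KO cells PRKACB was at 12.5 and 11.7 RPKM with EGF and 5.75 and 6.15 with cordycepin, a fall of the log2 level (-0.92, SE 0.15, adjusted p = 0.0477 by limma). PRKACB-DT was at 3.99 and 3.51 RPKM with EGF and 5.44 and 5.18 with cordycepin in the same libraries, a log2 fold change of 0.50 (adjusted p = 0.174). In WT cells PRKACB was at 6.16 and 6.49 against 7.90 and 8.50 RPKM, and PRKACB-DT at 2.90 and 4.51 against 6.68 and 6.54. The cordycepin libraries of the transcript lay above its EGF libraries in both lines, and those of the partner lay below in AMPK KO and above in WT cells (0.39, adjusted p = 0.283).

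WAPL-DT, beside the gene of the cohesin release factor, was at 2.18 and 2.33 RPKM with EGF and 6.28 and 6.85 with cordycepin in WT cells. Its AMPK KO libraries were at 2.74 and 3.24 against 6.05 and 4.04 RPKM. WAPL was at 21.8 and 23.0 against 18.7 and 21.3 RPKM in WT, and at 26.8 and 27.0 against 16.4 and 19.1 in AMPK KO cells. MIF4GD-DT was the member whose partner was called for the averaged cordycepin effect, and the changes were 0.69 for the transcript (adjusted p = 0.0576) and 0.83 for MIF4GD (adjusted p = 0.0257 by limma), a translation factor-like gene. Exons of MIF4GD-DT overlap those of another gene, so its reads are uncertain.

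**Figure D5:**
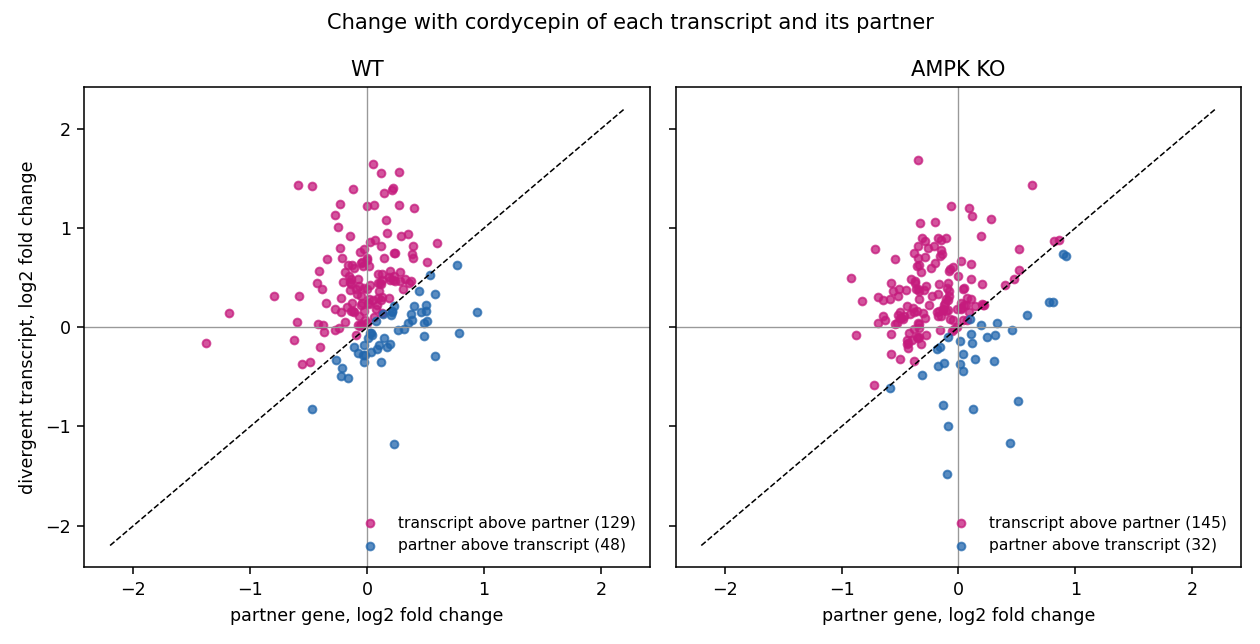
Log2 fold change with cordycepin of each divergent transcript (vertical) against its partner gene (horizontal) in WT (left) and AMPK KO cells (right) for 177 pairs, with the dashed line at equal change. Points above the line number 129 in WT and 145 in AMPK KO cells.

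Subsets of the members were compared by their median change. The 108 members without any exon overlap had median changes of 0.35 (WT) and 0.20 (AMPK KO), and the 71 with overlap 0.25 and 0.22. The 51 members with 1 exon had 0.45 and 0.23, and those with more exons 0.26 and 0.22. Split by the mean RPKM that the selection used, members of at least 2 RPKM had 0.34 and 0.19, and those below 0.29 and 0.22. The 57 members with AATAAA in the first 1000 bases had 0.22 and 0.22, and those without 0.35 and 0.21. The 10 members beside ZNF, ZKSCAN, ZBTB or ZSCAN genes had 0.07 and 0.08. No difference between these subsets was tested.

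The EGF effect on the members was small. In WT cells the median change from DMSO to EGF was -0.05 over the members and 0.02 over all genes, and in AMPK KO cells -0.09 and 0.01. No member passed at an adjusted p under 0.05 by limma in either line, where 0.0227% and 0.0136% of all genes passed. At an unadjusted p under 0.05, 10 members were higher and 10 lower in WT cells, beside 6.18% and 3.53% of all genes, and the AMPK KO counts were 2 and 5, beside 1.03% and 1.4%. The WT counts of 10 and 10 became 22 and 44 without WT DMSO replicate 2, the lower count became 3 without WT DMSO replicate 3, and the higher count became 6 without WT EGF replicate 3. The adjusted count in WT was 8 without WT DMSO replicate 2, which leaves only the shallow replicate 3 as control, and the WT median ranged from -0.13 to 0.01 over the alternatives. With EGF 54 of 179 members (30.2%) had a positive change in AMPK KO cells, against 43.8% of the other lncRNA genes and 51.4% of all genes. The median change there was -0.04 over the other lncRNA genes and 0.03 over the partners.

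The 3 members of smallest p in each line are given as values. MARCHF6-DT was at 0.944 and 0.799 RPKM in WT with DMSO and 2.07 and 2.61 with EGF (1.02, adjusted p = 0.428 by limma), but shares 319 exonic bases with MARCHF6 and another gene. PHLDA1-DT (-0.94) and RPL37A-DT (-0.94, from 0.667 and 1.53 to 0.243 and 0.374 RPKM) had the next smallest p in WT, each adjusted to 0.438 by limma. In AMPK KO cells PIK3IP1-DT went from 1.99 and 2.05 to 1.28 and 1.05 RPKM, KPNB1-DT from 1.48 and 1.68 to 1.00 and 0.959, and DPY19L3-DT from 4.21 and 3.75 to 2.53 and 3.13, with adjusted p of 1 by limma. EGF and cordycepin comparisons share the EGF libraries, so a member low in those libraries appears in both. No member has an immediate early gene as its partner. For the difference in EGF effect between lines 0 members passed, as did 0% of all genes, and DPY19L3-DT (-0.88), DLX2-DT (-0.82) and KIF26A-DT (-1.64) had the smallest p, with 3 members higher and 8 lower at an unadjusted p under 0.05 beside 3.3% and 5.38% of all genes. These counts became 20 and 15 without WT DMSO replicate 2 and ranged from 0 to 20 and from 5 to 15 over the alternatives.

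Between the lines the members' median difference was small. Averaged over the 3 treatments the median difference was 0.08 over the members, 0.02 over the partners and 0.001 over all genes. ACAD9-DT, ZDHHC12-DT, CAPN10-DT and RPL37A-DT were higher at an adjusted p under 0.05 by limma and 0 were lower, where 4.34% of all genes passed. At an unadjusted p under 0.05, 21 members were higher and 3 lower, beside 10.9% and 9.44% of all genes. The selection used the libraries of both lines. The counts between the lines, here and below, were not repeated without members that reached 1 RPKM only through a single line, so they are a description. The higher count was 39 without WT DMSO replicate 3 and 12 with cordycepin alone, where 9 were lower. The median difference was 0.14 with DMSO, 0.13 with EGF and 0.001 with cordycepin. The adjusted count was 21 without WT DMSO replicate 3. It was 5 without WT DMSO replicate 2, 3 without AMPK KO cordycepin replicate 3 and 1 or 2 without any of 9 other libraries, namely WT EGF replicates 2 and 3, WT cordycepin replicates 2 and 3, AMPK KO DMSO replicates 2 and 3, AMPK KO EGF replicates 2 and 3 and AMPK KO cordycepin replicate 2.

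Of all 22067 genes tested, 364 lay higher and 223 lower in AMPK KO cells without overlap between the lines. Of the 179 members, 1 lay higher and 0 lower. That member was ACAD9-DT, beside the gene of an acyl-CoA dehydrogenase that assembles complex I. It was at 2.39, 2.28, 2.38, 2.39, 2.96 and 2.36 RPKM in the 6 WT libraries and at 4.31, 4.11, 3.64, 3.57, 3.73 and 3.68 in the 6 AMPK KO libraries. The difference was 0.56 (SE 0.09, adjusted p = 0.0103 by limma) and kept its call in all 22 alternatives. ACAD9 was higher too, by 0.42 (adjusted p = 0.0423 by limma), from 5.22 to 8.88 RPKM in WT and 7.82 to 11.1 RPKM in AMPK KO libraries. The transcript differed by 0.71 with DMSO, 0.52 with EGF and 0.43 with cordycepin.

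The other 3 varied over the treatments, and for ZDHHC12-DT the sign did too. ZDHHC12-DT differed by 0.78 on average (SE 0.13, adjusted p = 0.0129 by limma), made up of 1.30 with DMSO, 1.57 with EGF and -0.53 with cordycepin. CAPN10-DT differed by 0.48 (adjusted p = 0.0366 by limma), with 0.78, 0.31 and 0.34 in the same order, beside 0.49 for CAPN10 (adjusted p = 0.0833). RPL37A-DT differed by 0.68 (adjusted p = 0.049 by limma) and RPL37A, a ribosomal protein gene, by 0.54 (adjusted p = 0.0193), with 0.40, 1.17 and 0.46 for the transcript in that order, but RPL37A-DT holds 13 to 67 reads per library and shares 230 exonic bases with SMARCAL1 and 71 with a gene on its own strand. Its call was lost in 15 of 22 alternatives and that of CAPN10-DT in 10.

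Where the partner was called between the lines, the transcript had the same sign in 7 of 8 pairs, and over all pairs it did in 104 of 177. ZKSCAN2, THOC1, PTPN23 and WDR5B were higher in AMPK KO cells by 0.51, 0.37, 0.42 and 0.62, and their transcripts by 0.20, 0.28, 0.16 and 0.29 without passing. PRMT5, an arginine methyltransferase, was lower by -0.53 (adjusted p = 0.0207 by limma), and PRMT5-DT by -0.33 (adjusted p = 0.157). TFPI2, a protease inhibitor gene, was the exception. It was at 2.43 to 2.81 RPKM in WT and 1.19 to 2.07 in AMPK KO libraries (-0.61, adjusted p = 0.0113 by limma), while TFPI2-DT was at 0.471 to 1.56 and 1.37 to 3.22 RPKM (0.67, adjusted p = 0.0864). The ratio of TFPI2-DT to TFPI2 differed by 1.28 (SE 0.18, adjusted p = 0.0048 by limma), the only member to pass for this ratio, beside 0.409% of all pairs. ZDHHC12-DT was the only member whose ratio passed for the cordycepin effect between lines (-2.47, adjusted p = 0.0493 by limma, beside 0.512% of all pairs).

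Genes of the machinery that removes or ends such transcripts were counted as fixed lists. Of the 24 measured genes of the nuclear exosome and its adapters, 15 of the Integrator complex and 23 of cleavage factors and U1 snRNP, 0 passed at an adjusted p under 0.05 by limma in any of the 5 comparisons. With cordycepin in AMPK KO cells, 5 exosome, 5 Integrator and 4 cleavage or U1 genes were lower at an unadjusted p under 0.05 and 0, 0 and 2 were higher, beside 10.1% of all genes lower and 11.7% higher and 16.5% of protein-coding genes lower, with medians of -0.18, -0.17 and -0.18. In WT cells 2, 1 and 2 were lower and 1, 0 and 0 higher, beside 7.13% and 8.86% of all genes, with medians of 0.07, 0.03 and -0.07. Of 37 immediate early genes, 5 passed as higher with EGF in WT cells, led by EGR1 (6.16) and EGR3 (3.35), and 3 in AMPK KO cells, led by EGR1 (5.28) and FOS (2.50). With cordycepin EGR1 fell in WT and KLF6 in AMPK KO cells (-0.87), and MYC (-1.42) and ARC (-1.02) were lower in AMPK KO than in WT cells, all at an adjusted p under 0.05 by limma.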

How the data were processed

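RNA from 12 libraries of HEK293 cells was measured, 2 in each of 6 groups taken from the sample labels. The authors mapped reads to GRCh38.p13, counted them with Rsubread and deposited RPKM per gene, and the submitters' processing notes name FastQC. The annotation and strand setting of counting are not given in the sources used here, and a first replicate was left out by the authors. Identifiers were matched to GENCODE 44 for 26029 of 26058 genes. Whole reads were recovered for 25080 genes (96.25%), and 2 entries named no gene.

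RPKM was scaled to the upper quartile, 0.5 was added and log2 values were fitted with limma 3.58.1 (R 4.3.3) over 22067 genes of mean RPKM at least 0.5, with 1 mean per group, a trended variance prior and two-sided Benjamini-Hochberg adjustment (6 residual degrees of freedom, 8.96 after moderation). The fit was tested on simulated data. Alternatives are given in the closing section. The members and gene lists were chosen with earlier results of these data known. Genes named are the 10 members of highest level, those called or else the 3 of smallest p in each comparison, those whose partner was called, those nearest the threshold, and the 5 of highest and lowest ratio to the partner. Sequences are hg38. Some items are not reported here.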

Additional observations from a re-analysis of the deposited data

How the results depend on the processing

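Of the alternative values, 665 kept their direction and side of the threshold or moved little, 174 moved, 74 lost a call in the same direction and no called value changed sign. Of the medians, which were not tested, that of EGF in WT cells (-0.05) was 0.01 with voom and 0.004 without WT DMSO replicate 3, and that of the difference in EGF effect (-0.05) was 0.09 without WT DMSO replicate 2 and 0.02 without WT EGF replicate 2. Counts of members called at the threshold of the study (unadjusted p up to 0.05 and a log2 fold change of at least 1) were 2 and 1 for EGF in WT and AMPK KO cells, 16 and 9 for cordycepin, 1 between the lines, and 4 and 18 for the differences in EGF and cordycepin effect. With voom on the recovered reads they were 13 and 8 for cordycepin in WT and AMPK KO cells, 14 for its average, 14 for its difference and 12 between the lines. For cordycepin in AMPK KO cells the count was 0 with a pseudocount of 0.1, a filter at a mean RPKM of 1, only the groups compared, the replicate block, the block within each line, or DMSO alone as control, and 3 without the variance trend. The averaged count was 6 without the trend and 1 with the block within each line. Between the lines the count was 2 with the block within each line, and 0, 1 and 0 in DMSO, EGF and cordycepin alone. The difference in cordycepin effect gave 11 with only the groups compared.

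For the ratio to the partner, a pseudocount of 0.1 gave 1, 0 and 0 members for cordycepin in WT, in AMPK KO cells and for their difference, with a pseudocount of 1 there were 11 in AMPK KO cells, 3 for the difference and 2 between the lines, and the replicate block gave 0 for the difference. The labels do not say what a replicate number marks. Deviations of same-numbered libraries correlated at 0.136 to 0.314 among the WT groups, at -0.122 to 0.0307 among the AMPK KO groups and at -0.122 to 0.322 over all 15 pairs of groups, so pairing within WT cells remained possible and the fits with the block are given above.

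Leaving out 1 library at a time gave 0 to 8 members for EGF in WT, 0 for EGF in AMPK KO cells, 0 for cordycepin in WT, 0 to 11 in AMPK KO cells, 0 to 8 for the average, 1 to 21 between the lines, 0 for the difference in EGF effect and 0 to 14 for that in cordycepin effect. Members higher with cordycepin at an unadjusted p under 0.05 numbered 29 to 38 in WT and 22 to 36 in AMPK KO cells when a library of that comparison was left out. For the ratio the adjusted counts were 0 to 15, 0, 0 to 19, 0 to 25 in AMPK KO cells, 1 to 9 between the lines, and 0 to 1 and 0 to 12 for the differences. A group left with 1 library is assumed to vary like the others. The cause of these shifts was not tested. With 16 reads for the median member in WT DMSO replicate 3, small differences from that group were not detectable.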

Other observations

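Divergent transcripts below the selection threshold were also measured. The 90 with a mean of 0.5 to 1 RPKM had a median change with cordycepin of 0.35 (WT) and 0.25 (AMPK KO). At an unadjusted p under 0.05, 20 and 15 of them were higher, beside 8.86% and 11.7% of all genes. The lower ones numbered 1 and 3, beside 7.13% and 10.1%. Their mean included the cordycepin libraries, and the counts were not repeated without genes that reached 0.5 RPKM only through those libraries. Antisense lncRNA genes with an -AS symbol (515 of at least 1 RPKM) had medians of 0.14 and 0.22, and the 145 intergenic LINC genes 0.20 and 0.27.

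HK2-DT, beside the gene of hexokinase 2, was the member lower with cordycepin in WT at an unadjusted p under 0.05, at 2.57 and 2.92 RPKM with EGF and 0.911 and 0.889 with cordycepin (-1.18, adjusted p = 0.279 by limma). In AMPK KO cells it was at 1.19 and 0.924 against 0.922 and 2.5 RPKM, which overlapped.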
